A study of Mus musculus with 160 samples.

Results

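The genes described here are 30 genes of lymphocytes and lymph nodes, taken as a fixed list of 13 T cell, 12 B cell and 5 node stroma genes. All 30 were found by symbol among the 56980 gene IDs of the deposited tables, of which 56236 carried a symbol. The genes are known markers of these cells, but the list was chosen with earlier results of these data known. They were read in every fat library to see whether T cell, B cell and stroma genes stood high together or apart. Standing together would be as in a piece of lymph node, and standing apart as in scattered cells. Male mice of 4 inbred strains, SJL, DBA/2J, A/J and C57BL/6J, were kept on chow until 12 weeks of age. They then ate a mouse form of an American, a Mediterranean, a vegetarian or a vegan human diet for 6 weeks. The labels describe these diets as equal in calories and macronutrients, with different sources for the nutrients. Tissues were taken at 18 weeks from 2 mice for each strain and diet, giving 32 libraries in each of 3 fat depots: brown fat, subcutaneous fat and visceral fat. Each strain therefore had 8 libraries per depot, and 29 of the 35 mice gave all 3 depots. No mouse carried an engineered allele in the labels. The labels do not give the anatomical site of the subcutaneous or visceral piece, or say whether a lymph node was removed from it.

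Lymph nodes are sites where T cells and B cells gather in separate zones built by stromal cells. Ccl21a and Ccl19 encode chemokines of the T cell zone, read by the receptor Ccr7. Cxcl13 encodes the chemokine of the B cell follicle, read by the receptor Cxcr5. Lymphocytes enter from blood through high endothelial venules, whose cells make Glycam1, a mucin of the vessel wall, while Madcam1 encodes an adhesion molecule of mucosal venules and of some follicle stroma. Ccl21a is also made by lymphatic vessels, and Cxcl13 by some macrophages and mesothelial cells, so neither belongs to nodes alone. In rodents a lymph node is embedded in the inguinal subcutaneous fat pad, and other nodes lie in the mesenteric and mediastinal fat.

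Sequences are shown for 2 reasons: to show which Ccl21 copy the reads could be told from, and to set a T cell, a B cell and a stroma promoter side by side. The mouse genome holds several near-identical Ccl21 genes on chromosome 4, so a value for Ccl21a depends on how reads shared between copies were counted. In GRCm39, Ccl21a lies at chr4:42772859-42773995 on the minus strand and Ccl21b at chr4:42255693-42256825 on the plus strand. The coding sequences, each of 399 bases, differ by T84A and C194T, counted from 1 at the first base of the start codon, with the Ccl21a base first. The second of these changes the protein by S65L. Coding bases 64 to 214 are printed in the direction of the gene, with capitals at the 2 differing bases.
Ccl21a: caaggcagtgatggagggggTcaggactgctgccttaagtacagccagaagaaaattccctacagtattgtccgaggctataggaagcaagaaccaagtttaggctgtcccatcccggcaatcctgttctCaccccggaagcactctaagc
Ccl21b: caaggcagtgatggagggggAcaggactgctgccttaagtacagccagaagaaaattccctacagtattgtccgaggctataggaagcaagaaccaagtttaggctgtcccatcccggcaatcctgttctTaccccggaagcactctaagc
All 4 other copies, Ccl21b, Ccl21d, Ccl21e and Ccl21f, had the same coding sequence as each other. In the 96 fat libraries, 187157 counts fell on Ccl21a, and 146.7 counts, or 0.0783% of all Ccl21 counts, on the other 4. Almost every counted read was thus placed on Ccl21a, but reads that match several copies are uncertain, and the value may stand for the family.

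The 250 bases before the start of Lck (chr4:129467435-129467684, minus strand), a kinase of T cell receptor signalling, of Blk (chr14:63654588-63654837, minus strand), a kinase of B cell receptor signalling, and of Glycam1 (chr15:103473516-103473765, minus strand) were read from the GRCm39 genome with GENCODE transcript starts. They are printed 5′ to 3′ on the gene's strand, and capitals mark a match to the RUNX core TGTGGT.
Lck: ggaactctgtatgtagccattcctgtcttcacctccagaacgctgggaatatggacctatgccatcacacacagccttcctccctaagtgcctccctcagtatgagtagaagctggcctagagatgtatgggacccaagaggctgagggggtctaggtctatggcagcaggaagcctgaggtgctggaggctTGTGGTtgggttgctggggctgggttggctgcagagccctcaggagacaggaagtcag
Blk: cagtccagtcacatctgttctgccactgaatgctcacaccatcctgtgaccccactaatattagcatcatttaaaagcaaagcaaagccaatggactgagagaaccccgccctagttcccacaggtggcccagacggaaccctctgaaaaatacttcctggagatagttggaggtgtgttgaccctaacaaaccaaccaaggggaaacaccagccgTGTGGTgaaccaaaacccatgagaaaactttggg
Glycam1: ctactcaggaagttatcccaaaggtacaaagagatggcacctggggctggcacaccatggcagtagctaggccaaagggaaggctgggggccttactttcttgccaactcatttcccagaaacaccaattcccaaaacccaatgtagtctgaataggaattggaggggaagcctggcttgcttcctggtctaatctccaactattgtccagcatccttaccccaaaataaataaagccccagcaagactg
The match began 58 bases before the start of Lck and 34 bases before that of Blk. Of the 30 members, 6 (20%) held TGTGGT on either strand, 3 of them T cell genes (Cd28, Lck, Ccr7) and 3 B cell genes (Cd79b, Blk, Fcer2a), beside 13.0% of 21757 promoters of protein-coding genes. The ETS core CCGGAA was in 2 members (6.67%), Zap70 and Cd37, beside 12.4% of promoters. The octamer ATTTGCAT was in Treml2 (1.49% of promoters), a kappa B site in Cxcr5 (0.423%) and an EBF site in no member (0.882%). No member's window held matches to 2 of these 5 motifs, and no node stroma gene held any of them. A match describes letters in the window only.

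Library totals were 18.0 to 28.3 M counts in brown fat, 18.9 to 38.7 M in the subcutaneous depot and 20.5 to 54.8 M in the visceral one (M, mega). Levels below are CPM, counts scaled to a common library total; levels of different genes are compared only as TPM, transcript values that are also divided by gene length. Before any result, 2 libraries lacked the marker of their labelled depot. The subcutaneous library of mouse 24 (A/J, Mediterranean diet) had Hoxc10, a marker of subcutaneous fat here, at 0.29 CPM, where the median of that depot was 16.6 CPM. Its Wt1, a marker of visceral fat here, was at 0.318 CPM, beside 5.85 to 22.4 CPM in visceral libraries other than that of mouse 50. The library was thus low for both depots' markers, and its rank correlation over 17307 genes was 0.803 to 0.960 with visceral libraries (median 0.915) and 0.803 to 0.955 with subcutaneous ones (0.900), ranges that overlap. The library labelled visceral fat of mouse 50 (SJL, American diet) had Wt1 at 0 and Hoxc10 at 16.3 CPM. Its rank correlation with the subcutaneous library of the same mouse was 0.995, above every one of 28 pairs of SJL subcutaneous libraries (0.857 to 0.991). Counts of these 2 libraries of mouse 50 differed by more than sampling noise (chi-square per degree of freedom 14.2). They differed by less than in any of the 28 pairs (21.5 to 326). Counts of called members are given with and without them, as are most log2 differences named for depots and strains, while each mean ± SD, p and SE is over all libraries. RNA of the liver gene Alb was above 10% of the mean liver level in 4 brown, 4 subcutaneous and 9 visceral libraries, and its part in the results was not tested. In bulk tissue, fewer cells of a type and less RNA per cell cannot be told apart.

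The question of level by depot was answered the same way by T cell, B cell and stroma genes: all 30 had their highest median in subcutaneous fat. In median TPM of the 32 subcutaneous libraries, Ccl21a came first at 558, followed by the B cell receptor chains Cd79a (221) and Cd79b (205), Cxcl13 (173) and Ccl19 (120). The B cell tetraspanin Cd37 reached 107 and Fcer2a, the low-affinity IgE receptor of follicular B cells, 92.0 TPM. Among T cell genes Ccr7 (89.1), Lck (84.4) and the coreceptor chain Cd8b1 (71.3 TPM) led, and the receptor chains Cd3d, Cd3g and Cd3e had 56.8, 41.8 and 24.5 TPM. Glycam1 had 47.4 TPM and Madcam1, the lowest of the 30, 3.51 TPM. The order in visceral fat was different: Ccl21a again led at 129 TPM, but Cd37 (19.3) and Cxcl13 (13.4) stood above Cd79a (8.08), Cd2 (6.28), Ccl19 (5.10) and Lck (2.74), and Glycam1 had 0.0734. In brown fat Ccl21a had 10.6, Cxcl13 3.71 and Cd79a 1.90 TPM, and the median of Glycam1 was 0.

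The T cell receptor chain gene Cd3e ranged from 0 to 6.75 CPM in brown fat (median 0.36), from 0.159 to 110 in subcutaneous fat (37.0) and from 0.333 to 102 in visceral fat (0.832). For the B cell receptor chain gene Cd79a the ranges were 0.389 to 18.8 (median 1.25), 0.529 to 226 (120) and 1.49 to 147 CPM (4.41). The lowest subcutaneous value of both genes was that of mouse 24 and the highest visceral value that of mouse 50. Cr2, the complement receptor of B cells and follicular dendritic cells, ranged from 0.0444 to 17.4 CPM in brown (median 0.366), from 0.265 to 251 in subcutaneous (80.0) and from 0.411 to 179 in visceral fat (1.22). Cd37 and Cd247 behaved less like an on-off marker, with lowest subcutaneous values of 32.7 and 6.25 CPM and brown fat medians of 2.60 and 3.63 CPM. Both are known to be expressed outside B and T cells too.

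Glycam1, the venule gene, ranged from 0 to 4.89 CPM in brown fat, from 0 to 172 in subcutaneous fat (median 37.2) and from 0 to 63.6 in visceral fat (median 0.0537). It reached 1 CPM in 31 subcutaneous libraries but in only 3 brown and 3 visceral ones, and had no count in 18 brown, 10 visceral and 1 subcutaneous library. In those libraries a level of up to 0.106 to 0.167 CPM, or 3 counts, could have been missed, counting error only. Ccl19 ranged from 0 to 4.89 CPM (median 0.194) in brown, from 0.159 to 108 (36.9) in subcutaneous and from 0.473 to 94.2 (1.68) in visceral fat. Ccl21a was at 10 CPM or more in all 32 visceral libraries, where Cxcl13 reached that level in 11 and Cd79a in 7. It ranged from 17.3 to 187 CPM (median 38.4) there, against 0.953 to 290 (175) in subcutaneous and 0 to 41.5 (4.31) in brown fat. Cxcl13 ranged from 0.535 to 11.9 CPM (1.91) in brown, from 12.8 to 107 (71.0) in subcutaneous and from 1.11 to 90.6 (5.43) in visceral fat. It is also the only index gene that stayed above 10 CPM in all 32 subcutaneous libraries, mouse 24 included. Madcam1 stayed under 5 CPM everywhere, at 0.0529 to 4.34 CPM (1.79) in subcutaneous fat and medians of 0.0948 and 0.115 CPM in brown and visceral fat.

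To compare depots, the 96 libraries were fitted together with strain and diet as further terms, using edgeR's quasi-likelihood test with Benjamini-Hochberg adjustment over all 24640 genes tested. Subcutaneous fat was above brown fat for 30 of 30 members, where 79.6% of all genes were called and 45.2% were called higher. The median log2 difference was 5.72 over the members (T cell 5.62, B cell 5.82, stroma 4.15) and 0.13 over all genes. Cd37 differed by 4.65 (SE 0.22, adjusted p = 5.68e-35), with 146 ± 56.7 against 4.32 ± 4.64 CPM (mean ± SD, n = 32 each). The T cell adhesion receptor Cd2 differed by 5.14 (SE 0.28, adjusted p = 7.69e-31), with 44.3 ± 22.2 against 0.950 ± 1.38 CPM. Cd3e rose by 5.62 on the log2 scale (SE 0.41), Cd79a by 5.45 (SE 0.36) and Cr2 by 6.00 (SE 0.47). Of the stroma genes, Glycam1 had the widest log2 difference at 6.75 (SE 0.66, adjusted p = 2.64e-16), followed by Ccl19 at 5.70 (SE 0.41), Ccl21a at 4.15 (SE 0.30, adjusted p = 5.4e-23), Cxcl13 at 4.10 (SE 0.28, adjusted p = 7.83e-25) and Madcam1 at 3.23 (SE 0.26, adjusted p = 1.61e-21). Without the subcutaneous library of mouse 24 and the visceral library of mouse 50, again 30 were called, with a median of 5.66, and the differences were 4.71 for Cd37, 5.16 for Cd2, 5.52 for Cd3e, 5.44 for Cd79a and 5.90 for Cr2, and 6.52 for Glycam1, 5.64 for Ccl19, 4.22 for Ccl21a, 4.13 for Cxcl13 and 3.26 for Madcam1.

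Against visceral fat, subcutaneous fat was again higher for 30 of 30 members (66.2% of all genes called, 31.1% higher), with a median log2 difference of 3.95 (T cell 4.23, B cell 3.87, stroma 3.40) beside -0.04 over all genes. Madcam1 gave the smallest adjusted p, with a difference of 3.40 (SE 0.25, adjusted p = 9.02e-23), and the costimulatory receptor Cd28 differed by 3.50 (SE 0.25, adjusted p = 5.78e-22). Glycam1 differed by 6.03 (SE 0.65, adjusted p = 1.01e-13), Cd79a by 3.86 (SE 0.33, adjusted p = 4.64e-18) and Ccl19 by 3.77 (SE 0.37, adjusted p = 1.59e-15). Ccl21a differed least of all 30, by 1.73 (SE 0.27, adjusted p = 3.01e-08), with 171 ± 69.6 CPM in subcutaneous and 49.1 ± 35.3 CPM in visceral fat (n = 32 each). Without the libraries of mice 24 and 50, 30 were called, with a median of 4.27, and the differences were 3.71 for Madcam1, 3.88 for Cd28, 6.51 for Glycam1, 4.23 for Cd79a, 4.15 for Ccl19 and 1.87 for Ccl21a. The other T cell genes on a companion list that holds no member were higher in subcutaneous fat for 18 of 18 genes (median 4.05) and the other B cell genes for 16 of 16 (median 3.22). Markers of macrophages did not follow: none of 8 was higher and 1 was lower, while all 8 were higher in subcutaneous than in brown fat (median 2.06). Of 7 lymphatic vessel genes, 1 was higher and 4 were lower in subcutaneous than in visceral fat.

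Visceral fat was above brown fat for 26 of 30 members (79.8% of all genes called, 46.6% higher), comprising 11 of 13 T cell, 12 of 12 B cell and 3 of 5 stroma genes, with a median log2 difference of 1.40. Without the 2 libraries that lacked their depot's marker, 23 members were called and the median was 1.01. Without the libraries of high Alb as well, 18 were called. Cd37 differed by 2.36 (SE 0.20, adjusted p = 2.45e-19), Cd2 by 2.30 (SE 0.25, adjusted p = 6.78e-14) and Ccl21a by 2.42 (SE 0.28, adjusted p = 6.75e-13), or 2.18, 2.03 and 2.35 without those 2 libraries. The coreceptor chains Cd8a (0.67, SE 0.42, adjusted p = 0.139) and Cd8b1 (0.66, SE 0.46, adjusted p = 0.178), Glycam1 (0.72, SE 0.60, adjusted p = 0.269) and Madcam1 (-0.17, SE 0.29, adjusted p = 0.608) did not pass. Macrophage genes were higher in visceral than in brown fat for 8 of 8 (median 1.97) and lymphatic vessel genes for 7 of 7 (median 2.34), and the part of these cells in the members' difference was not tested. On the TPM scale the median of all genes moved from 0.13 to 0.81 for subcutaneous against brown fat, from 0.15 to 0.69 for visceral against brown and from -0.04 to 0.10 for subcutaneous against visceral. Of all genes called in these 3 comparisons, 56.7%, 58.4% and 46.9% were higher by counts and 88.2%, 87.7% and 67.8% by TPM.

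**Figure D1:**
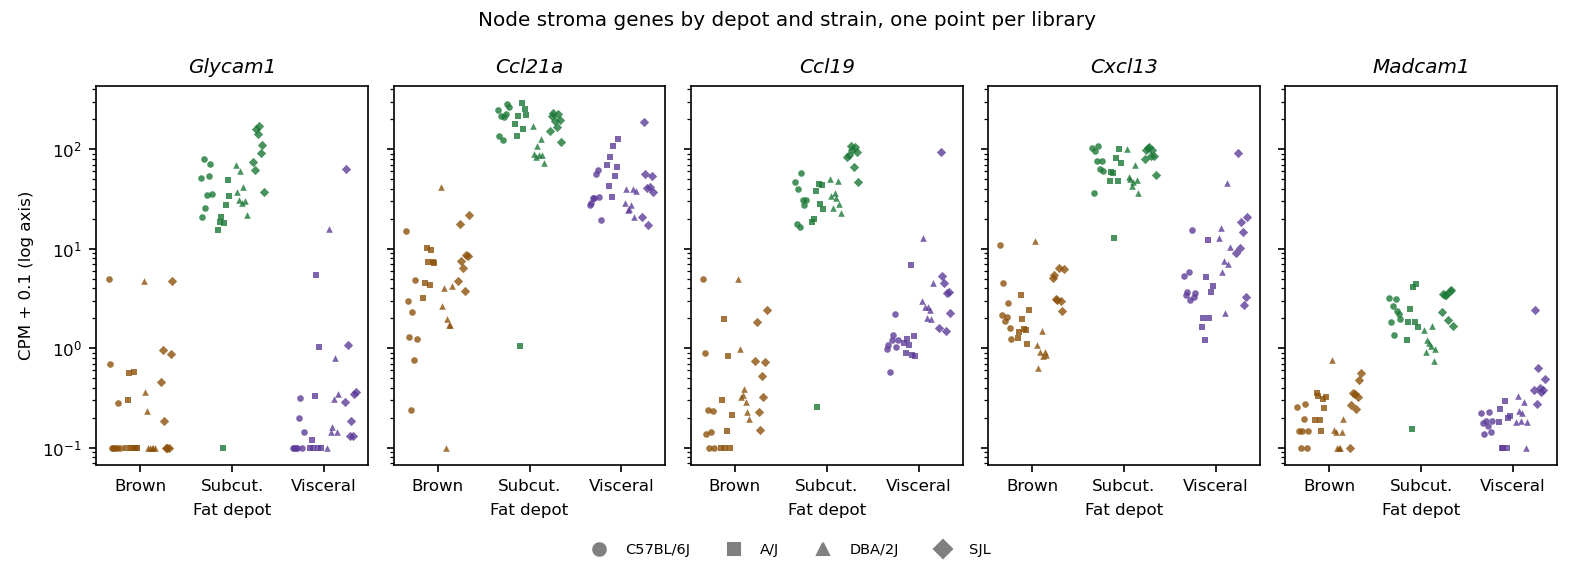
CPM + 0.1 (log axis) of the 5 node stroma genes by fat depot, 1 point per library, with strains as symbols. Glycam1 lies at or near the bottom in most brown and visceral libraries, whereas Ccl21a lies between 17.3 and 187 CPM in every visceral library.

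The overlap of the depots was then read library by library. Without mouse 24, each of 31 subcutaneous libraries was above all 32 brown libraries for 29 of 30 members, all but Madcam1, where this held for 16.9% of all genes tested. With mouse 24 it held for 3 members, and for 13.4% of genes. Without mouse 24 and without mouse 50, all 31 subcutaneous libraries were above all 31 visceral libraries for 26 members, where it held for 1.55% of genes. The 4 that overlapped were Cd247, Glycam1, Ccl21a and Cxcl13. With all 64 libraries it held for 0 members and for 0 of all genes. Over these 31 libraries the subcutaneous median was 4.21 (Cd247) to 128 (Cd8a) times the visceral median for 29 members, with a middle value of 28.5 over all 30. For Glycam1 it was at least 256 times higher, taken at 3 counts in each visceral library, since its visceral median was under 3 counts. The 2 libraries that lacked their depot's marker were at opposite ends. Mouse 50's visceral library lay inside the subcutaneous range for 29 of 30 members, with Cd3e at 102, Cd79a at 147 and Glycam1 at 63.6 CPM. Mouse 24's subcutaneous library lay below that range for all 30, with Cd3e at 0.159, Cd79a at 0.529, Ccl21a at 0.953 and Ccl19 at 0.159 CPM, Glycam1 without a count and Cxcl13 at 12.8 CPM.

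Among the other visceral libraries, a few carried lymphocyte genes above the rest, and they differed in the levels of the classes. The library of mouse 34 (DBA/2J, American diet) had Cd3e at 8.85, Cd79a at 24.4, Cr2 at 18.2, Glycam1 at 15.5, Ccl19 at 12.8 and Cxcl13 at 16.0 CPM. That of mouse 25 (A/J, vegetarian diet) had Cd3e at 6.81, Cd79a at 16.0, Cr2 at 10.2, Glycam1 at 5.36, Ccl19 at 6.71 and Cxcl13 at 12.2 CPM. In both, T cell, B cell, venule and follicle genes stood above the visceral medians together. The library of mouse 43 (DBA/2J, vegetarian diet) had a different balance, with Cd79a at 16.8 and Cxcl13 at 45.2 CPM, the highest Cxcl13 of visceral fat other than mouse 50. Its Cd3e at 0.797 CPM was just under the visceral median of 0.832. Its Glycam1 at 0.705 and Ccl19 at 2.34 CPM were above the visceral medians of 0.0537 and 1.68. Mouse 64 (SJL, vegan diet) had Cd79a at 14.4, Cr2 at 9.49 and Cxcl13 at 20.7 CPM beside Cd3e at 2.02 and Glycam1 at 0.260 CPM. All of these were above the visceral medians too, though Cd3e and Glycam1 were lower than in mice 34 and 25. Mouse 32 (A/J, vegan diet) had Cd79a at 10.8 and Ccl21a at 126 CPM, the highest Ccl21a among visceral libraries other than mouse 50, with Cr2 at 0.673 CPM and no count of Glycam1. The summed T cell genes per summed B cell genes ran from 0.218, in mouse 43, to 1.18 over the visceral libraries (median 0.587). Mouse 34 was in the group of 8 DBA/2J libraries and mouse 25 in that of 8 A/J libraries, and their T cell sums were 119.9 and 98.5 CPM in visceral fat and 9.02 and 8.43 CPM in brown fat. The brown fat of mouse 34 had Cd3e at 0.520, Cd79a at 1.48 and Glycam1 at 0.260 CPM, all above the medians of that depot (0 for Glycam1). The brown fat of mouse 25 had 0.118, 0.897 and 0 CPM.

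**Figure D2:**
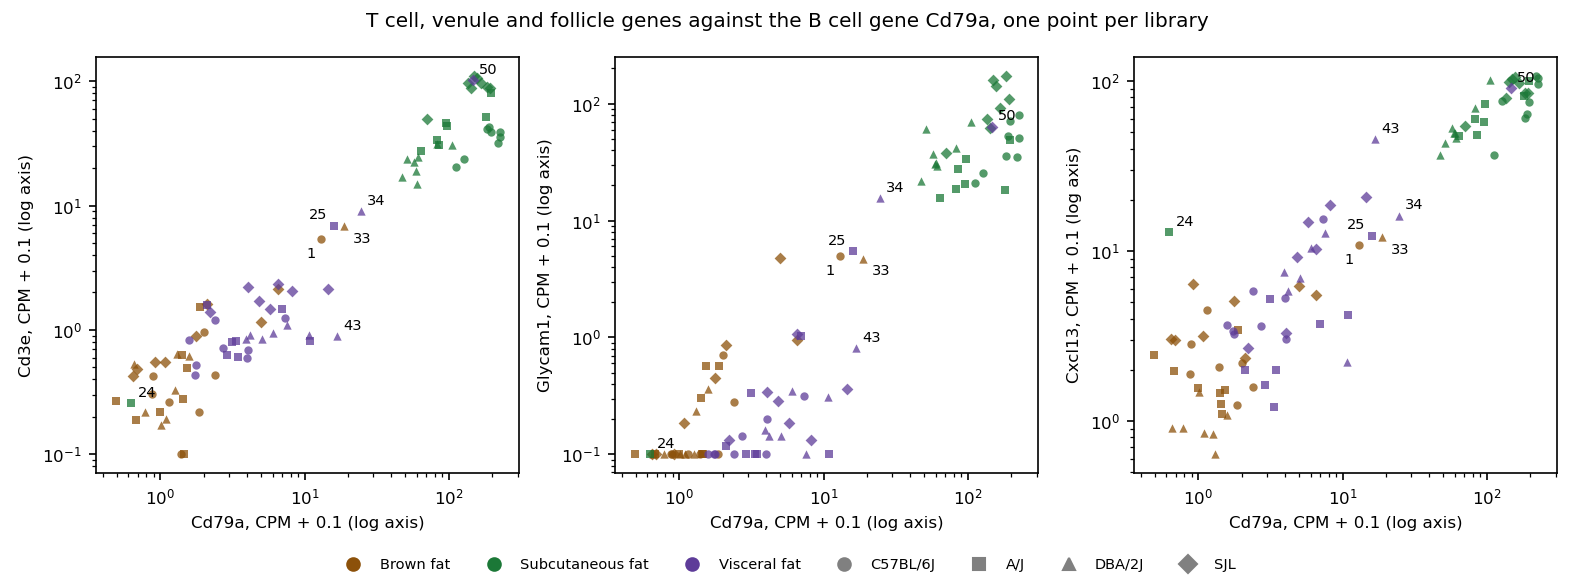
CPM + 0.1 of Cd3e, Glycam1 and Cxcl13 (y, log axes) against Cd79a (x, log axes), 1 point per library, depots as colours, strains as symbols and mouse numbers beside libraries named in the text. Visceral mouse 34 (Cd3e 8.85, Glycam1 15.5 CPM) and mouse 25 lie between most visceral and the subcutaneous libraries in the first 2 panels. Visceral mouse 43 lies near the visceral median for Cd3e (0.797 CPM, median 0.832). It lies above the visceral median for Glycam1 (0.705, median 0.0537) and high for Cxcl13 (45.2).

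In brown fat, 3 libraries had Cd79a above 4 times the depot's median, and all 3 came from mice on the American diet. Mouse 33 (DBA/2J) had Cd3e at 6.75, Cd79a at 18.8, Cr2 at 10.98, Glycam1 at 4.62, Ccl21a at 41.5, Ccl19 at 4.84, Cxcl13 at 11.9 and Madcam1 at 0.653 CPM. Mouse 1 (C57BL/6J) had Cd3e at 5.29, Cd79a at 12.9, Cr2 at 17.4, Glycam1 at 4.89, Ccl19 at 4.89 and Cxcl13 at 10.7 CPM. Mouse 50 (SJL) was lower, with Cd3e at 2.03, Cd79a at 6.45 and Glycam1 at 0.855 CPM. Mouse 64 (SJL, vegan diet) had Glycam1 at 4.66 CPM with Cd79a at 4.91 and Cd3e at 1.06 CPM. The brown fat median of Glycam1 was 0, so any count of it stood above the median. Cd3e, Cd79a and Glycam1 were all above their brown fat medians in 11 of 32 libraries, with mice 1 and 33 the highest for Cd3e and Cd79a. The visceral libraries of these mice had T cell sums of 22.8 CPM (mouse 1) and 22.3 CPM (mouse 33), beside 73.1 and 94.9 CPM in their brown fat.

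Pairs of index genes were followed across the 32 libraries of each depot on the log2(CPM + 0.1) scale, in 18 relations with permutation p-values of 100000 resamples and Benjamini-Hochberg adjustment over the 18. Values of a library share its depth, and all 18 Pearson r were positive. In subcutaneous fat, Cd3e and Cd79a had r = 0.902 (adjusted p = 1.64e-05, resting on the smallest p the resamples can give) and Spearman's rho = 0.628 (adjusted p = 0.00032). Without the 2 libraries farthest from the median of Cd79a, mice 24 and 48, r was 0.599, and within strains it was 0.717 to 0.996. In visceral fat the same pair had r = 0.800 (adjusted p = 1.64e-05) and rho = 0.584 (adjusted p = 0.00106), with r = 0.513 without mice 34 and 50. In brown fat r was 0.766 (adjusted p = 1.64e-05) and rho 0.582 (adjusted p = 0.00106), with r = 0.548 without mice 1 and 33. Glycam1 followed Cd79a with r = 0.885 in brown (adjusted p = 1.64e-05, 0.802 without mice 1 and 33), 0.876 in subcutaneous (adjusted p = 9.69e-05, 0.465 without mice 24 and 48) and 0.828 in visceral fat (adjusted p = 1.64e-05, 0.631 without mice 34 and 50), with rho of 0.814 (adjusted p = 3.6e-05), 0.529 (adjusted p = 0.00292) and 0.664 (adjusted p = 6e-05).

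Cxcl13 and Cr2, the follicle pair, had r = 0.875 and rho = 0.816 in subcutaneous fat (adjusted p = 1.64e-05 and 3.6e-05), and r was 0.798 without mice 24 and 63. In visceral fat r was 0.771 (adjusted p = 1.64e-05), rho 0.691 (adjusted p = 3.6e-05), and r was 0.671 without mice 34 and 50. In brown fat r was 0.628 (adjusted p = 9.69e-05), rho 0.416 (adjusted p = 0.0205), and r was 0.379 without mice 1 and 33. Ccl21a and Cd3e had r = 0.908 (adjusted p = 1.64e-05) and rho = 0.677 (adjusted p = 0.000157) in subcutaneous fat, with r = 0.627 without mice 24 and 53. In brown fat r was 0.556 (adjusted p = 0.00169), rho 0.528 (adjusted p = 0.00292), and r was 0.424 without mice 1 and 33. In visceral fat r was 0.508 (adjusted p = 0.00485), rho was 0.230 (adjusted p = 0.204), and r was 0.279 without mice 34 and 50. The pooled visceral r thus rested largely on those 2 libraries, while within strains r was 0.319 to 0.858. Differences between depots in these relations were not tested. The pair of venule genes, Madcam1 and Glycam1, had r = 0.754 (adjusted p = 0.000309) and rho = 0.481 (adjusted p = 0.00679) in subcutaneous fat, and 0.483 without mice 24 and 57. In visceral fat r was 0.624 (adjusted p = 0.00156) and rho 0.535 (adjusted p = 0.00276). There r was 0.305 without mice 34 and 50, and 0.441 to 0.806 within strains. In brown fat r was 0.517 (adjusted p = 0.00234), rho 0.395 (adjusted p = 0.0268), and r was 0.465 without mice 1 and 64.

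Strain was compared in subcutaneous fat with diet as a further term over 32 libraries, by the same test over 23508 genes. A strain effect was called for 24 of 30 members, where 65.6% of all genes were called, so the count is not far from the background. It took in 13 of 13 T cell, 8 of 12 B cell and 3 of 5 stroma genes, and 29 members without mouse 24 (63.2% of genes). The smallest adjusted p of the classes were those of Cd28 (2.54e-07), Cd247 (3.01e-06) and Cd8b1 (0.000165) for T cells, Cd37 (0.00115), Cr2 (0.00277) and Cxcr5 (0.00781) for B cells, and Ccl19 (0.00365), Glycam1 (0.00581) and Madcam1 (0.0121) for stroma. The authors relaxed the mismatch penalty of the aligner for strains other than C57BL/6J, so strain and alignment setting cannot be told apart in comparisons with that strain.

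SJL stood highest for T cell genes. Its 8 subcutaneous libraries had Cd3e at 49.2 to 110 CPM (median 92.7), above the highest of C57BL/6J (20.2 to 42.7, median 37.0) and DBA/2J (14.8 to 30.9, median 22.8), while A/J ran from 0.159 to 79.8 (median 38.5). Against the mean of the other strains, 18 of 30 members were called in SJL, all of them higher (43.8% of genes called, 21.9% higher): 13 of 13 T cell genes, 2 of 12 B cell genes (Cr2, Treml2) and 3 of 5 stroma genes (Glycam1, Ccl19, Madcam1). The median log2 difference was 1.30 for T cell, 0.47 for B cell and 0.75 for stroma genes, beside 0.02 over all genes. Cd28 differed by 1.51 (SE 0.18, adjusted p = 2.49e-07), with 60.0 ± 14.9 CPM (n = 8) against 22.2 ± 11.3 (n = 24). Cd247 differed by 1.24 (SE 0.17, adjusted p = 1.57e-06) and Cd8b1 by 1.77 (SE 0.34, adjusted p = 0.000114), with 88.5 ± 24.0 against 28.9 ± 16.4 CPM. Cd3e differed by 1.55 (SE 0.33, adjusted p = 0.000365), with 90.5 ± 18.6 against 31.9 ± 15.5 CPM. Without mouse 24 the differences were 1.43 for Cd28, 1.16 for Cd247, 1.67 for Cd8b1 and 1.45 for Cd3e.

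The stroma of SJL divided. Ccl19 differed by 1.45 (SE 0.33, adjusted p = 0.000723), with 86.1 ± 20.5 CPM (n = 8) against 31.8 ± 13.1 (n = 24), and Glycam1 by 1.57 (SE 0.39, adjusted p = 0.00208), with 106 ± 48.5 against 36.4 ± 19.6 CPM. Ccl21a, the other T zone chemokine, differed by 0.23 (SE 0.35, adjusted p = 0.628), its SJL libraries at 119 to 232 CPM (median 194) overlapping C57BL/6J at 123 to 288 (median 221). Cxcl13 differed by 0.45 (SE 0.20, adjusted p = 0.0716). Cr2 differed by 1.43 (SE 0.33, adjusted p = 0.00106), with 192 ± 45.9 against 73.3 ± 34.9 CPM, whereas Cd79a differed by 0.48 (SE 0.35, adjusted p = 0.277) and the B cell factor Pax5 by 0.30 (SE 0.37, adjusted p = 0.548). Cd79a in SJL (70.9 to 192 CPM, median 153) lay within the range of C57BL/6J (112 to 226, median 193) but for its lowest library, that of mouse 64. Without mouse 24 the differences were 1.36 for Ccl19, 1.46 for Glycam1 and 1.35 for Cr2. The count for SJL was 21 without mouse 24, and 15 to 21 when any single mouse was left out. It was 26 without the libraries of high Alb and mouse 24.

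DBA/2J stood lowest. Its subcutaneous libraries had Cd79a at 47.4 to 105 CPM (median 59.4) beside 112 to 226 in C57BL/6J, without overlap, and Cr2 at 30.1 to 80.5 CPM (median 49.0) beside 109 to 251 (median 203) in SJL. Among these DBA/2J libraries, those of mice 34, 38 and 45 had Alb at 29.1%, 54.4% and 12.5% of the mean liver level. Against the other strains 20 of 30 members were called, all lower (45.6% of genes called, 20.5% lower): 11 T cell, 8 B cell and 1 stroma gene, Madcam1. The medians were -0.96 for T cell, -0.93 for B cell and -0.33 for stroma genes. Cd28 fell by 1.33 (SE 0.21, adjusted p = 1.76e-05), with 13.0 ± 3.59 CPM (n = 8) against 37.8 ± 20.1 (n = 24). Cd37 fell by 0.72 (SE 0.18, adjusted p = 0.0021), Cxcr5 by 1.01 (SE 0.31, adjusted p = 0.01) and Madcam1 by 1.08 (SE 0.30, adjusted p = 0.00554). Cd79a fell by 0.99 (SE 0.38, adjusted p = 0.0358), with 65.5 ± 19.2 against 145 ± 58.8 CPM. Without mouse 24 the differences were -1.37 for Cd28, -0.76 for Cd37, -1.07 for Cxcr5, -1.14 for Madcam1 and -1.05 for Cd79a. Glycam1 (-0.15, SE 0.43, adjusted p = 0.796) and Ccl19 (-0.22, SE 0.35, adjusted p = 0.638) did not pass; DBA/2J had Glycam1 at 21.5 to 69.2 CPM (median 34.0) and Ccl19 at 22.7 to 50.2 (median 33.0), close to C57BL/6J at 20.7 to 80.2 (43.4) and 16.4 to 57.6 (30.6). This count rested on single libraries: it was 12, 13, 12, 8 and 7 without mouse 34, 39, 42, 45 or 48, and 27 without mouse 24. Without any of mice 34, 39, 42, 45 or 48, 40.1% to 42.2% of all genes were called. On the log2 TPM scale limma called 6 (pseudocount 0.1) or 7 (pseudocount 1), all lower.

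**Figure D3:**
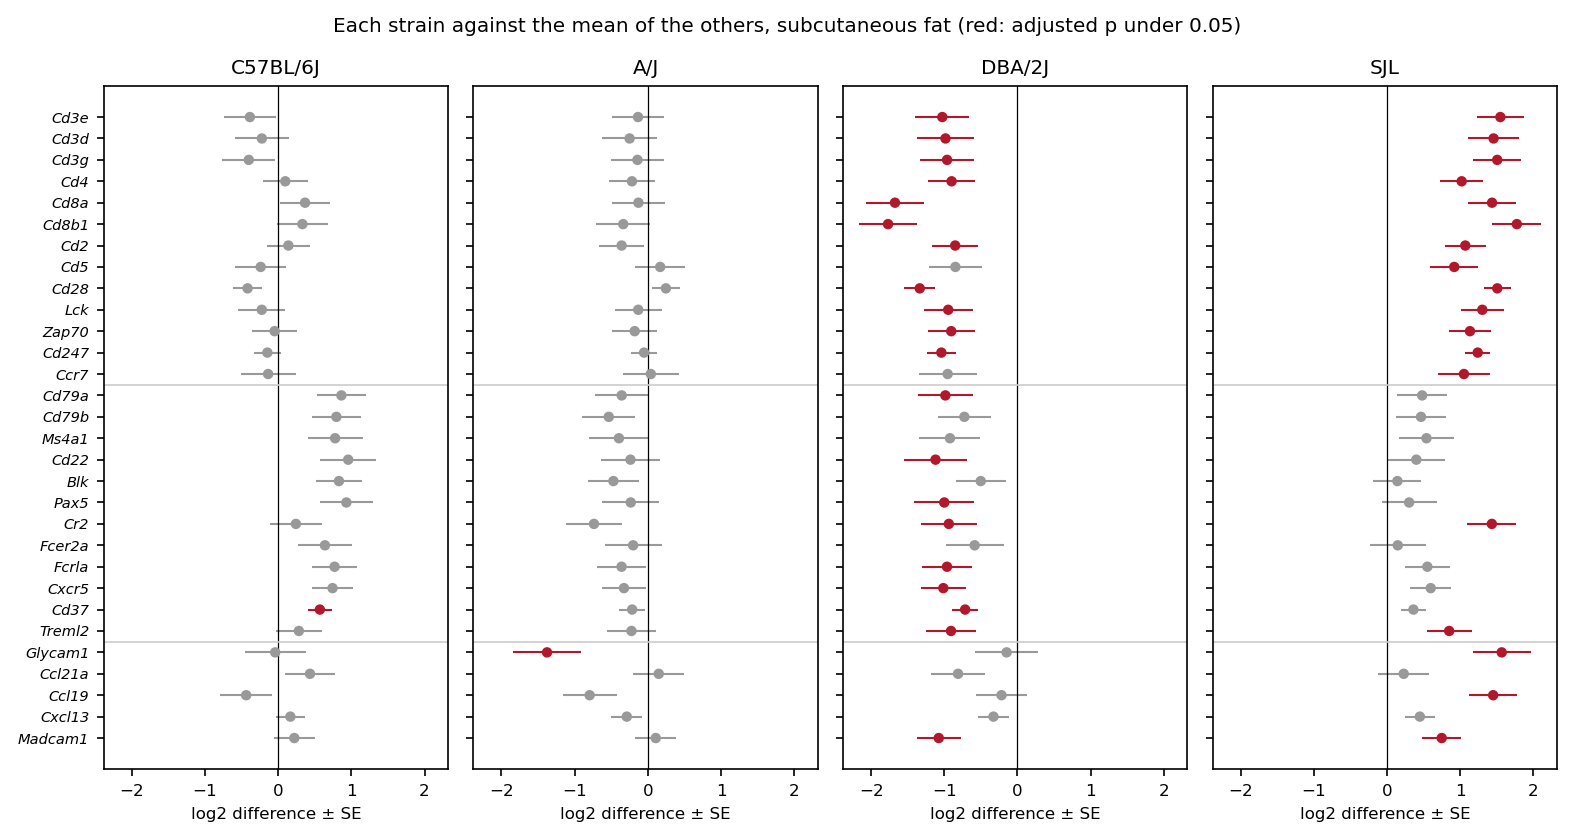
Log2 difference (± SE) of each strain from the mean of the other strains in subcutaneous fat for the 30 genes, with adjusted p under 0.05 in red. In SJL all 13 T cell genes are red and to the right, with Ccl21a (0.23) and Cxcl13 (0.45) near 0; in DBA/2J 20 genes are red and to the left.

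C57BL/6J and A/J each had 1 call in the full set (25% of genes called in C57BL/6J, 13.6% higher, and 19.5% in A/J, 8.17% lower). In C57BL/6J it was Cd37, higher by 0.57 (SE 0.17, adjusted p = 0.0113), with 193 ± 38.2 against 131 ± 53.8 CPM, or 0.52 without mouse 24. Without mouse 24, 15 members were called in C57BL/6J, 11 higher and 4 lower, beside 25.8% of all genes. The count was 4, 4, 6, 4 and 2 without mouse 2, 25, 30, 33 or 38, where 23.8% to 25.4% of genes were called. In A/J the call was Glycam1, which fell by 1.38 on the log2 scale (SE 0.46, adjusted p = 0.0363), with 22.8 ± 14.3 against 64.1 ± 43.1 CPM. Without mouse 24 there were 3 calls in A/J, 1 higher and 2 lower, with Glycam1 among them (-1.14), and the call was lost when any of mice 13, 17, 18, 22, 25, 27, 33 or 57 was left out.

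The balance of classes within a library was read as ratios, given as a description, chosen after the values were seen and with no test. In subcutaneous fat without mouse 24, the summed T cell genes per summed B cell genes were 0.356 to 0.469 (median 0.437) in the 8 C57BL/6J libraries and 0.720 to 1.23 (median 1.03) in the 8 SJL libraries, without overlap. A/J (0.563 to 0.871, median 0.786, 7 libraries) and DBA/2J (0.472 to 0.778, 8 libraries) overlapped each other and SJL, and lay above C57BL/6J. The ratio of Cd3e to Cd79a gave the same order of the extremes, with 0.145 to 0.225 in C57BL/6J, 0.284 to 0.474 in A/J, 0.247 to 0.458 in DBA/2J and 0.458 to 0.738 in SJL. Glycam1 per Cd79a divided the strains otherwise: 0.157 to 0.356 in C57BL/6J and 0.0991 to 0.341 in A/J, against 0.455 to 1.18 in DBA/2J and 0.428 to 1.07 in SJL. DBA/2J and SJL thus overlapped in the venule ratio although they stood at opposite ends for the level of T cell genes.

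**Figure D4:**
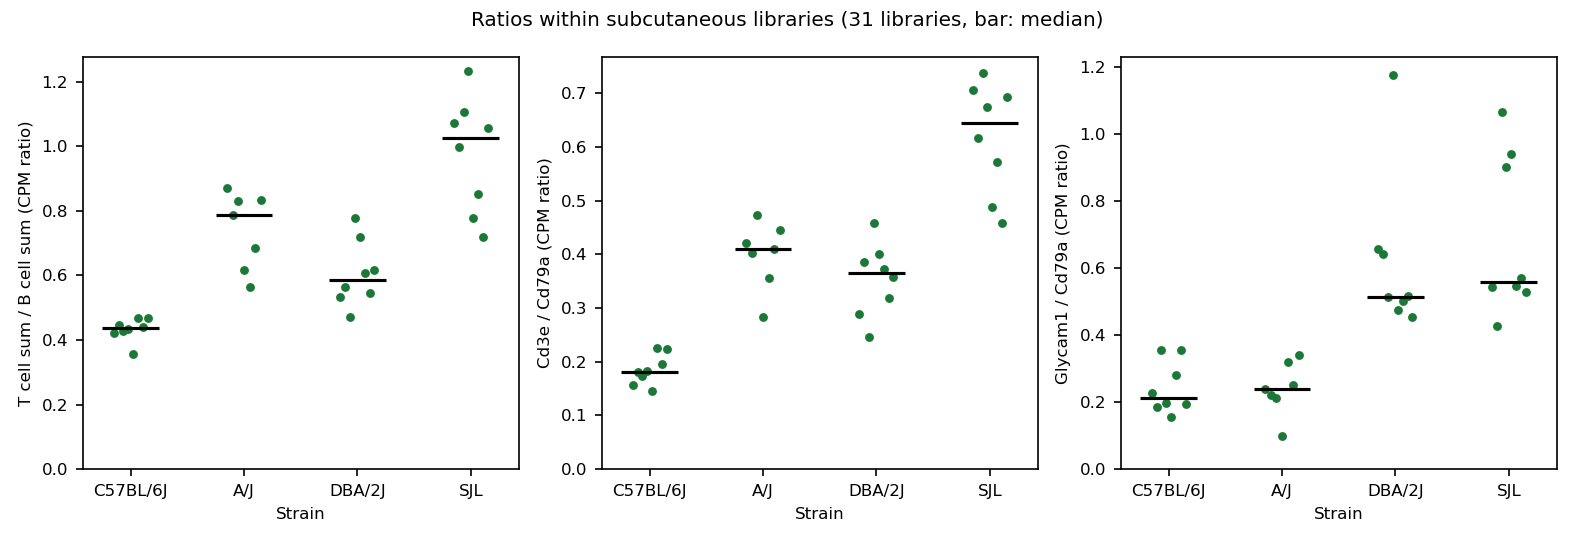
Ratios of CPM within 31 subcutaneous libraries (mouse 24 left out) by strain: summed T cell to summed B cell genes, Cd3e to Cd79a, and Glycam1 to Cd79a, with points for libraries and bars for medians. C57BL/6J lies lowest in the first 2 panels (medians 0.437 and 0.182), and DBA/2J and SJL lie above C57BL/6J and A/J in the third (medians 0.516 and 0.560 against 0.213 and 0.240).

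Lists without members, read in the same subcutaneous fit, were set beside all genes, of which 21.9% were higher and 21.9% lower in SJL, and 25.1% higher and 20.5% lower in DBA/2J. In SJL, 16 of 18 other T cell genes were higher (median 1.19), among them the T cell adaptor Trat1 by 1.73 and the costimulatory receptor Cd27 by 1.45, while of 16 other B cell genes 1 was higher (Ralgps2, 0.48) and 1 lower (the immunoglobulin heavy chain Ighm, -0.68). Of 9 other node stroma genes tested, 4 were higher and 1 lower, with Bst1, a surface enzyme of stromal cells, higher by 1.98 (SE 0.17, adjusted p = 5.3e-10). Markers of other cells moved too: 6 of 8 macrophage genes were lower in SJL (summed level 583 to 1210 CPM, beside 1114 to 2263 in C57BL/6J), and 4 of 7 lymphatic vessel genes were lower (55.8 to 149 CPM, beside 134 to 266). The brown fat gene Ucp1 was higher in SJL by 4.38 (SE 0.98). In DBA/2J, 15 of 18 other T cell genes and 9 of 16 other B cell genes were lower, 5 of 8 macrophage genes were lower (591 to 1117 CPM), 5 of 6 epithelial genes tested were higher (3.19 to 176 CPM, beside 1.34 to 34.1 in C57BL/6J) and 4 of 6 mesothelial genes were higher (3.53 to 29.6 CPM, beside 2.78 to 7.38). High Alb was seen in 3 DBA/2J and 1 SJL subcutaneous libraries. The part of these cells and libraries in the members' differences was not tested.

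In visceral fat, the strain effect was called for 21 of 30 members over all 32 libraries (40.1% of 22715 genes), 10 T cell, 7 B cell and 4 stroma genes. Without mouse 50 it was called for 10 (40.7% of genes), 9 of them shared. Against the other strains, SJL had 22 members called, all higher (17.6% of genes called, 8.7% higher). Without mouse 50 it had 3 (14.8% of genes called), of which Cr2 and Madcam1 were shared. The median log2 difference of the members moved from 1.79 to 0.60. Madcam1 differed by 2.47 (SE 0.35, adjusted p = 2.74e-06), or 1.99 without mouse 50, and was at 0.176 to 2.33 CPM in SJL against 0 to 0.230 in the other strains. These levels rest on few counts: of 32 visceral libraries, 4 had no count of Madcam1 and 18 had 3 counts or more. Cr2 differed by 2.94 (SE 0.63, adjusted p = 0.00161), or 1.67 without mouse 50, with an SJL median of 3.01 CPM against 0.646 in C57BL/6J, 0.683 in A/J and 1.83 in DBA/2J. Cd3g moved from 2.26 (SE 0.52, adjusted p = 0.00293) to 1.04, Cd3e from 2.25 (SE 0.61, adjusted p = 0.0112) to 0.84, Ccl19 from 2.15 (SE 0.52, adjusted p = 0.00443) to 0.87 and Cd79a from 1.61 (SE 0.50, adjusted p = 0.0247) to 0.50.

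The other strains had few calls in visceral fat. A/J had 1 (13.4% of genes), Ccl21a, higher by 0.89 (SE 0.24, adjusted p = 0.0128), with 72.9 ± 31.9 CPM (n = 8) against 41.2 ± 33.3 (n = 24), and it was lost without mouse 32, while 3 were called without mouse 25 or 50 and 2 without mouse 24, 42, 59 or 63. DBA/2J had 2 (29.2% of genes), both lower: Cd247 fell by 1.58 (SE 0.27, adjusted p = 8.15e-05), with 4.27 ± 1.70 against 12.4 ± 13.8 CPM, and Ccl21a fell by 0.93 (SE 0.27, adjusted p = 0.00922), with 30.4 ± 7.56 against 55.3 ± 38.8 CPM. Without mouse 50, DBA/2J had 5 calls, these 2 among them (-1.35 and -0.73), and Ccl21a in A/J differed by 1.04. In C57BL/6J (12.5% of genes, 6.66% higher and 5.82% lower) the B cell lectin Cd22 fell by 1.50 (SE 0.48, adjusted p = 0.0367), with 2.96 ± 1.36 against 12.7 ± 27.3 CPM. That call was lost without mouse 1, 2, 7, 9, 13, 16, 25 or 30, while 6 members were called without mouse 50 (Cd22 among them), 4 without mouse 59 and 2 without mouse 20, 49, 57 or 63.

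Brown fat gave few strain differences, with 2 of 30 members called where 56.8% of 20210 genes were. They were Cd247 (adjusted p = 0.00576) and Cd37 (adjusted p = 0.02), and 11 members were called without the libraries of mice 1, 33 and 50, which had been picked by their level of a member, Cd79a. Leaving out mouse 1, 22, 33 or 49 alone gave 5, 6, 10 and 5 calls, with 54.1% to 56% of all genes called. In A/J the kinase Blk (-2.27, SE 0.75, adjusted p = 0.0165) and Cd37 (-0.92, SE 0.33, adjusted p = 0.0289) were lower (35.8% of genes called), with 0 calls without mouse 17 or 18, 1 without mouse 30 or 32, 8 without mouse 22 and 4 without mouse 49. In C57BL/6J (26.2%) Cd247 was higher by 0.60 (SE 0.16, adjusted p = 0.00638), with 3 calls without mouse 1 and 2 without mouse 33. In DBA/2J (34.8%, of which 19.9% higher and 14.8% lower) Cd37 was higher by 0.93 (SE 0.28, adjusted p = 0.0117) and Cd247 lower (-0.56, SE 0.18, adjusted p = 0.0135), with 4 calls without mouse 33. SJL had 0 calls by edgeR (23.9% of genes), with 5 members at an unadjusted p under 0.05, 7 calls without mouse 33, 3 without mouse 1, 22 or 49, and 1 without mouse 7, 32 or 50.

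Whether strain acted alike in the 3 depots was tested by an interaction of strain and depot. Over all libraries it was called for 10 of 30 members (51.8% of 24640 genes), a share below the background. They were Cd247 (adjusted p = 0.00182), Cd37 (0.00626), Cd79a (0.0196), Cxcr5 (0.0244), Cd22 (0.0261), Pax5 (0.0296), Blk (0.0494) and Cr2 (0.0498) of the lymphocyte genes and Madcam1 (0.00772) and Cxcl13 (0.0343) of the stroma genes. With the mouse as a block, which pairs depots of the same animal, 6 were called, Pax5 (adjusted p = 0.0641), Cxcl13 (0.0914), Blk (0.0927) and Cr2 (0.133) being lost. Without the 2 libraries lacking their depot's marker 16 were called, so the size of the share depends on those 2 libraries. Without mouse 7, 4 were called, beside 47.8% of genes.

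Diet was compared within each depot over the same libraries, with strain as a further term. In brown fat, 7 of 30 members were called, where 0.421% of 20210 genes (85 genes) were: 5 B cell genes, led by Blk (adjusted p = 0.00878), Treml2 (0.031) and Pax5 (0.0371), and the T cell genes Cd5 (0.043) and Cd3d (0.0433). An unadjusted p under 0.05 was reached by 28 of 30 members and by 12.8% of all genes. Blk was at 0.0890 to 5.58 CPM (median 0.701) on the American diet, 0 to 0.357 (0.158) on the Mediterranean, 0.0470 to 0.287 (0.0890) on the vegetarian and 0 to 1.23 (0.148) on the vegan diet, 8 libraries each. Cd79a was at 1.32 to 18.8 CPM (median 1.78), 0.548 to 1.78 (0.879), 0.587 to 1.42 (0.900) and 0.389 to 4.91 (1.55). The American group holds the 3 libraries of mice 1, 33 and 50 described above, and the ranges overlap. Vegetarian against American gave 1 call (0.267% of genes), Blk, which fell by 3.43 (SE 0.69, adjusted p = 0.0293), with 0.124 ± 0.102 against 1.52 ± 2.00 CPM (n = 8 each). Mediterranean and vegan against American gave 0 calls by edgeR (0.104% and 0.0148% of genes, the latter 0.00495% higher and 0.0099% lower), with 29 and 26 members at an unadjusted p under 0.05.

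The number of diet calls changed with single libraries. It was 0 without mouse 1 (0.0428% of genes called), 0 without mouse 33 (0.00476%) and 1 without mouse 50 (0.0665%). It was 21, 18, 17, 13 and 13 without mouse 22, 17, 49, 34 or 64, where 0.692% to 1.13% of genes were called. Leaving out a mouse moved the count by over 1.5 times for 28 of 32 mice, Blk being lost from vegetarian against American without mouse 1, 9, 12, 33, 42, 43, 50 or 59. That comparison gained calls without other mice, with 18, 17 and 11 called without mouse 17, 49 or 34, and 6, 5, 4, 4, 3 and 2 without mouse 2, 64, 22, 25, 18 or 27. Mediterranean against American had 22, 15, 12, 12, 8, 5, 5 and 1 called without mouse 22, 49, 17, 34, 18, 2, 64 or 48, and vegan against American 2 and 1 without mouse 64 or 49. The median log2 difference of the members from the American diet was -2.42 (Mediterranean), -2.71 (vegetarian) and -1.94 (vegan). Mice 1, 33 and 50 were picked by their level of Cd79a and all ate the American diet, so that a smaller difference without all 3, where 0 of 29 members tested were called, follows from that choice. The count also changed with the tool, as given with the other settings below. In subcutaneous fat edgeR, DESeq2 and limma each called 0 members for diet, and edgeR called 0 of all genes, with 0 members at an unadjusted p under 0.05 beside 3.10% of genes. Medians of Cd79a there were 109, 112, 175 and 141 CPM on the American, Mediterranean, vegetarian and vegan diets. In visceral fat the 3 tools each called 0 members over all diets, with 21 members at an unadjusted p under 0.05 in edgeR beside 4.40% of genes. Mediterranean against American had a median of -1.82 there.

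The genes whose levels followed Cd79a most closely were named from all genes with a symbol and a mean of at least 1 CPM, by Spearman's rho over the 32 libraries of a depot, as a description. In subcutaneous fat they were Hvcn1 (0.979), Tnfrsf13c (0.979), Bank1 (0.974), Fcmr (0.970) and Spib (0.968) of 17611 genes. In visceral fat those reported here were Fcmr (0.924), Spib (0.916), Pou2af1 (0.898) and Tnfrsf13c (0.879) of 17185. In brown fat those reported here were Ighd (0.698), Arid3b (0.684) and Carmil2 (0.677) of 15465. All but Arid3b and Carmil2 are textbook genes of B cells or of naive lymphocytes. Among the first 100 genes in each order were 9 members in subcutaneous, 12 in visceral and 10 in brown fat. In subcutaneous fat those 9 were B cell genes at places 4 to 67, and the other B cell members were at places 368 (Treml2) and 1156 (Cr2). T cell genes stood at places 1037 (Cd2) to 3666 (Cd28), with Cd3e at 2974 (rho 0.628), and the stroma genes Madcam1 at 606, Ccl21a at 625, Cxcl13 at 1179, Glycam1 at 4151 and Ccl19 at 4904 (rho 0.459).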

How the data were processed

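PolyA RNA of frozen tissue was sequenced (TruSeq Stranded, NovaSeq). Per the labels and the submitters' processing notes, the authors used FastQC, Trim Galore, HISAT2 on GRCm39 and HTSeq, and deposited expected counts per gene with reads of several matches shared as fractions, and TPM. Versions, annotation release, strand setting and gene lengths behind TPM are not stated in any source used here. Fractional values occurred in 43.8% to 52.1% of fat libraries for Cd3e, Lck, Cd22, Cxcr5, Cd247 and Cd37. Cxcr5, Cd37 and Cd247 overlap protein-coding genes on the opposite strand, and their counts are uncertain to that degree.

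Counts were rounded and fitted with edgeR 4.0.16 in R 4.3.3: TMM, filterByExpr (minimum count 10, minimum total 15), robust quasi-likelihood fits with bias-adjusted deviances, additive in strain and diet per depot, with depot added for 96 libraries. All 30 members passed the filter. SE is the size of the log2 difference over the square root of F. An adjusted p under 0.05 was called. Levels are CPM of plain totals. Depot comparisons did not block on mouse. The labels give the same mouse number to tissues of the same animal, and residuals of the same mouse had a median correlation of -0.015 (90 pairs) beside 0.0127 for different mice. Same-mouse pairs always share a strain and most other pairs do not, so these values cannot measure variation shared by a mouse. DESeq2 1.42.0 and limma 3.58.1 on log2(TPM + 1) and log2(TPM + 0.1) of genes averaging 1 TPM or more were alternatives. On simulated counts, 79% of 2-fold and 98% of 4-fold strain differences in subcutaneous fat were recovered (22493 genes). The simulation gave every gene the same dispersion and held no outlying library, so it does not measure recovery for the members.

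Named members are the called ones of smallest adjusted p, up to 3 per class and test, the 8 index genes, and others chosen after their values were seen; up to 2 genes per companion list are named. Members and lists were chosen with earlier results of these data known. Liver and muscle were not fitted, and some of the genes most alike to Cd79a are not reported here. Where nothing says that mice came from separate cages or litters, p-values measure the spread between these animals.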

Additional observations from a re-analysis of the deposited data

Results flagged for a closer look

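In 33 of 96 groups of 8 libraries (the 8 index genes, by strain and depot, on the log2(CPM + 0.1) scale), the highest or lowest library stood apart from the other 7 by more than Dixon's 95% limit, which chance gives in about 1 group in 20. The subcutaneous library of mouse 24 (A/J) stood low for all 8 genes: Cd3e at 0.159, Cd79a at 0.529, Cr2 at 0.265, Glycam1 at 0, Ccl21a at 0.953, Ccl19 at 0.159, Cxcl13 at 12.8 and Madcam1 at 0.0529 CPM. The subcutaneous library of mouse 64 (SJL), which had Alb at 26.5% of liver, stood low for Cd3e at 49.2, Cd79a at 70.9 and Cxcl13 at 54.5 CPM.

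The visceral library of mouse 50 (SJL) stood high for 6 genes, with Cd3e at 101.6, Cd79a at 146.5, Cr2 at 178.7, Glycam1 at 63.6, Ccl19 at 94.2 and Madcam1 at 2.33 CPM. Visceral mouse 25 (A/J) stood high for Cd3e at 6.81, Cr2 at 10.2 and Ccl19 at 6.71 CPM, and visceral mouse 34 (DBA/2J) for Cd3e at 8.85, Glycam1 at 15.5 and Ccl19 at 12.8 CPM. Visceral mouse 12 (C57BL/6J) stood high for the follicle genes Cr2 at 1.75 and Cxcl13 at 15.3 CPM. In brown fat, mouse 33 (DBA/2J) stood high for Cd3e at 6.75, Cd79a at 18.8, Cr2 at 10.98, Glycam1 at 4.62, Cxcl13 at 11.9 and Madcam1 at 0.653 CPM, and mouse 1 (C57BL/6J) for Cd79a at 12.9 and Cr2 at 17.4 CPM.

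Strain differences that were unequal across the 3 depots were found by edgeR's interaction test for Cd247 (adjusted p = 0.00182), Cd37 (0.00626), Madcam1 (0.00772), Cd79a (0.0196), Cxcr5 (0.0244), Cd22 (0.0261), Pax5 (0.0296), Cxcl13 (0.0343), Blk (0.0494) and Cr2 (0.0498), over 96 libraries. Over all 96 libraries, these 10 of 30 members were a smaller share than the 51.8% of all genes called. More members were called without the libraries lacking their depot's marker, so the size of the share depends on those libraries. With the mouse as a block Cd247, Cd37, Madcam1, Cd79a, Cxcr5 and Cd22 were called (adjusted p = 0.00167 to 0.0486), and without mouse 7 the count was 4.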

How the results depend on the processing

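Counts of called members kept within 1.5 times under DESeq2, other size factors and no count filter, except for diet in brown fat, where the 7 calls became 18 with DESeq2, 2 with no filter and 0 with edgeR's older deviances, a setting added after seeing the data. On log2 TPM, limma called 0 with either pseudocount there, with 12 members tested. For strain, limma with pseudocounts 0.1 and 1 called 6 and 4 in brown fat (2 in the main test) and 5 and 3 in visceral fat (21). With pseudocount 0.1 it called 12 in subcutaneous fat (24) and 4 for strain by depot (10). Without the libraries of high Cd79a, brown fat had 11 strain and 0 diet calls. Without those of high Alb or lacking the depot marker, there were 21 diet calls in brown fat, 5 strain calls in visceral fat and 5 for strain by depot. Without the libraries lacking the marker alone, also added after seeing the data, the last 2 counts were 10 and 16. The cause of these changes was not tested.

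Leaving out each mouse gave 2 to 10 strain and 0 to 21 diet calls in brown fat, 18 to 29 and 0 to 0 in subcutaneous fat, and 10 to 25 and 0 to 0 in visceral fat. It gave 30 to 30 calls for subcutaneous against brown, 23 to 28 for visceral against brown, 30 to 30 for subcutaneous against visceral fat and 4 to 13 for strain by depot. With the mouse as a replicate block, strain by depot had 6 calls, Cr2 (adjusted p = 0.133) and Cxcl13 (0.0914) being lost among others, and the depot counts stayed at 30, 26 and 30. Over 137 named values and 5039 alternatives of them, 4660 were kept, 379 lost the call and 0 reversed. Tests over several groups have no direction, so they could only keep or lose the call. The correlations were checked for the sign of r only, so they could not lose a call. Alternatives in which a gene was not tested were left out. Levels under about 0.1 CPM rest on 3 counts or fewer.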

Other observations

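Liver and muscle, which enter no comparison above, held the same genes at medians below those of subcutaneous fat. The T cell kinase Zap70 was at 2.19 to 12.4 CPM in liver (median 6.07), above its medians in visceral (1.39) and brown fat (0.327). The coreceptor Cd4 was at 1.31 to 11.3 CPM in liver (median 3.19), beside a visceral median of 2.98. All other T cell genes had liver medians below their visceral ones. Among them were Cd3e (0.345 against 0.832 CPM), Cd8b1 (0.132 against 0.354) and Cd5 (0.162 against 0.773). Cd28 was at 0.927 to 11.03 CPM in muscle (median 3.42), above its visceral median of 1.56 CPM. The other T cell genes had muscle medians below their visceral ones. Ccl21a was at 8.02 to 44.5 CPM in muscle (median 15.4) and 0.563 to 2.73 in liver (median 1.54), and the median of Glycam1 was 0 in both.

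Genes of the venule's sugar machinery did not share one pattern. Chst4, a sulfotransferase of high endothelial venules, was at 0.106 to 8.24 CPM (median 3.55) in subcutaneous fat and at 1.73 to 16.8 (median 4.24) in visceral fat, where Glycam1 had a median of 0.0537 CPM. Fut7, a fucosyltransferase of these venules and of leukocytes, had medians of 4.78 CPM in subcutaneous, 0.722 in visceral and 0.106 in brown fat. The heavy chain Ighm had medians of 944 CPM in subcutaneous, 621 in visceral and 63.9 in brown fat, and the subcutaneous library of mouse 24, with Cd79a at 0.529 CPM, had Ighm at 280 CPM. Genes of thymocytes summed to at most 7.20 CPM in any fat library.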
